A study of Mus musculus with 2 samples.

Results

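The AP-1, BATF and MAF factors are basic leucine zipper (bZIP) transcription factors, and 10 of them were examined here: Fos, Fosb, Fosl2, Jun, Junb, Jund, Batf, Atf3, Maf and Mafk. Members were chosen by name, with earlier results of these data known. Every probe set annotated to exactly 1 of these symbols was taken, which gave 18 probe sets of 10 genes, out of 45101 probe sets and 18193 genes on the array. Both samples were CD4+ T cells of DEREG mice, a strain in which the Foxp3 promoter drives green fluorescent protein (GFP). After negative selection for CD4+ cells, the cells were sorted by GFP into a positive and a negative population at a stated purity above 99%, and each was measured on 1 Affymetrix mouse genome array. The transgene was carried by both groups. Foxp3 defines regulatory T cells, so by the labels the GFP-positive group holds regulatory and the GFP-negative group the other CD4+ T cells. The sources used here do not state the organ, the mice's age and number, any pooling or any treatment.

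A bZIP factor binds DNA as a pair held together by a zipper of leucines. FOS proteins pair with JUN proteins to form AP-1, which is made within minutes of T cell receptor stimulation and acts with NFAT at cytokine genes. BATF lacks a transactivation domain, pairs with JUN proteins, and binds composite sites together with IRF4. MAF drives Il4 and Il10 in helper T cells, and small MAF proteins such as MAFK, which also lack a transactivation domain, pair with CNC factors such as NFE2L2 and with BACH factors.

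With 1 array per group there is no replicate error and no test was possible. Each difference below is log2 GFP-positive minus log2 GFP-negative between these 2 arrays, on the scale of the deposited signal. A floor of 61.8, the 90th percentile of genes restricted to other tissues, replaced every lower signal before log2, and "past" a fold means reaching it. As a yardstick, differences within a gene, between its probe sets, scattered with an SD of 0.40 log2 (8156 probe sets above the floor on both arrays, from 3204 genes). This scatter holds no variation between mice, sorts or hybridisations. On these arrays, fewer cells that express a gene and less RNA of it per cell cannot be told apart. Foxp3 had signals of 504 and 173 on the GFP-positive and GFP-negative arrays, in the direction of the labels but above the floor on both. All 11 regulatory T cell markers with a probe set, Foxp3 among them, also exceeded the floor on both arrays. Their summed signals were 16773 and 9005.5, and 11 of 11 were higher in GFP-positive cells, against 48.7% of all genes above the floor. All 8 CD4 T cell markers with a probe set lay above the floor on both arrays, with summed signals of 20242 and 20637. Markers of B cells were above it for 3 of 11 genes on each array (summed signals 2407 and 4674.5). Those of myeloid and dendritic cells were above it for 4 and 3 of 13 (459 and 622), of CD8 T and NK cells for 3 of 8 on each array (1522 and 1214), and of erythroid cells and platelets for 1 and 2 of 5 (156 and 242). All 3 B cell markers above the floor passed 2-fold, against 3.47% of all genes above it. Ighm read 1881 and 4139 and Cd22 98.3 and 235, both lower in GFP-positive cells, and Cd79b read 222 and 70.8, higher. Of 7 further Ighm probe sets above the floor, 5 went the other way. Gzma, on the CD8 T and NK list, read 1153 and 850.5. No marker was at 0, and Cd79a, Pax5, Lyz2, Cd14, Cd8a and Ncr1 were under the floor on both arrays. From the same lists, Cd8b1 (100.4 and 115.2), Klrd1 (148.5 and 103.5), Adgre1 (94.3 and 79.1) and Mpeg1 (69.7 and 105.5) were above it on both. Fcgr3, on the myeloid list, read 35 and 125.8, at least 2.03-fold lower in GFP-positive cells. The 3′ to 5′ signal ratio of Actb was 5.30 and 3.57, and that of Gapdh 9.27 and 6.24. The part of these differences in the results below was not tested.

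Of the 10 members, 7 lay above the floor on both arrays (Fos, Jun, Junb, Jund, Batf, Maf and Mafk) and 3 below it on both (Fosb, Fosl2 and Atf3). Of all genes, 57% exceeded it on at least 1 array. Of the 7, 3 had a higher and 4 a lower signal in GFP-positive cells, where 48.7% of the 10376 genes that exceeded the floor were higher and 51.2% lower. At 2-fold 0 of the 7 passed, against 3.47% of those genes, 1.74% upward and 1.73% downward. At a fold of 1.5, 0 of the 7 passed, against 16.7%, and 5 of the 7 differed by less than the scatter SD, against 68.3%. Among the 6519 genes at least as bright as the dimmest of the 7, 12.5% passed 1.5-fold. With 7 genes, these counts are near the background shares and are no result about the family. The median difference of the 7 was −0.04 log2, and that of all genes above the floor was −0.01. Under other settings the members' median lay between −0.04 and 0.09. The values ran from −0.43 for Batf to 0.42 for Mafk.

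**Figure D1:**
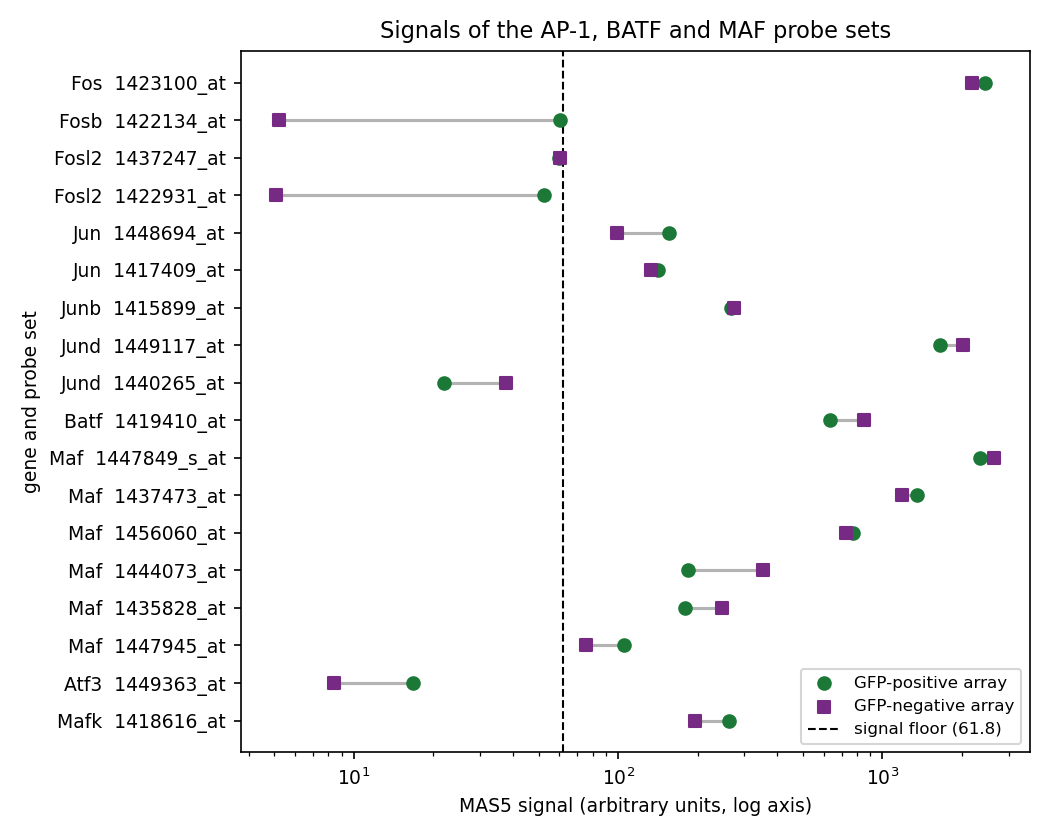
MAS5 signals (log axis) of the 18 probe sets of the 10 genes on the GFP-positive (circles) and GFP-negative (squares) arrays, 1 value each with no replicates, and the signal floor as a dashed line. In 13 probe sets both signals lie to the right of the floor, and the 5 others, of Fosb, Fosl2, Jund and Atf3, lie to its left on both arrays.

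AP-1 factors bind the 7-base element TGANTCA, and pairs of AP-1 and ATF proteins also bind the 8-base cyclic AMP response element TGACGTCA. Several members are known to be controlled through elements of this kind, so the letters were searched in the promoters. A RefSeq promoter (GRCm38.p6, 250 bases before to 50 after the start) was matched for 9 of the 10 members. Both strands were searched for TGANTCA, for TGACGTCA, for the looser TGACNTCA and for the shorter TGACGT. A full TGACGTCA counts under TGACNTCA and TGACGT as well. It was found in 0 of 9 promoters and in 1.79% of all. TGANTCA was found in 0 of 9 promoters and in 7.81% of all 32851 promoters of that length. TGACNTCA was found in that of Jun alone and in 8.83% of all. TGACGT was found in those of Fos, Batf and Atf3 and in 7.51% of all. These matches describe letters in the window and show no binding. The 4 matches are printed in stretches of 60 bases, 5′ to 3′ on the gene's strand, with the match in capitals, because they set side by side the looser or shorter forms found in Fos, Jun, Batf and Atf3, none of which is a full TGANTCA or TGACGTCA.
Fos, chr12:85473798-85473857, plus strand: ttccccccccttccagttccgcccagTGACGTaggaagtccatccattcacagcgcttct
Batf, chr12:85686596-85686655, plus strand: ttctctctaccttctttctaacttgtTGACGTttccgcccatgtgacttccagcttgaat
Atf3, chr1:191183334-191183393, minus strand: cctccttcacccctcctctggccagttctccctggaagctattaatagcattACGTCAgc
Jun, chr4:95052234-95052293, minus strand: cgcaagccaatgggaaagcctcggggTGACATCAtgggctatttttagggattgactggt
Fos and Batf hold TGACGT in the same orientation, with its first base 66 and 98 bases before the start. Atf3 holds it on the opposite strand, written ACGTCA, from 8 bases before the start. The match in Jun, TGACATCA, begins 45 bases before the start.

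Among the FOS proteins, which need a JUN partner to bind DNA, Fos gave a clear signal in both populations. Its only probe set, 1423100_at, read 2451 in GFP-positive cells against 2186 in GFP-negative cells. The GFP-positive array was the higher by 1.12-fold (0.16 log2), which is under the scatter between probe sets of 1 gene, and 64.6% of all genes above the floor differed by more. None of the 67 tissue-restricted genes with a probe set reached the Fos signal on either array.

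Fosb, whose protein pairs with JUN in the same way, read 60.4 in GFP-positive cells against 5.20 in GFP-negative cells. Both signals lay under the floor, the first by a narrow margin, so no difference was measured. On the GFP-positive array 12 of the 67 tissue-restricted genes had at least the Fosb signal. Fosl2, which encodes FRA-2, has 2 probe sets. The first, 1437247_at, read 59.7 and 60.1, and the second, 1422931_at, 52.5 and 5.10. All 4 Fosl2 signals lay under the floor. The GFP-negative signal of 60.1 was the nearest to the floor among the Fosl2 signals and was reached by 7 tissue-restricted genes. With a lower floor of 35.6, the 75th percentile of the tissue-restricted signals and tried only after the data had been seen, the Fosb difference was at least 1.70-fold in favour of GFP-positive cells (0.76 log2) and Fosl2 differed by −0.01 log2.

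The JUN proteins can pair with each other as well as with FOS, BATF and ATF partners. Jun, the founding member, has 2 probe sets above the floor. The brighter, 1417409_at, read 142 in the GFP-positive and 134 in the GFP-negative population, 1.06-fold apart (0.09 log2). The other, 1448694_at, read 156 and 98.9, 1.58-fold apart (0.66 log2). Both were higher in GFP-positive cells, and their differences lay 0.57 log2 apart. The SD over these 2 probe sets was 0.40 log2, close to the yardstick for probe sets of a gene. At these signals, 3 or 4 tissue-restricted genes were as bright on the same array.

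Junb, which in helper T cells acts with BATF and IRF4, read 266 in GFP-positive cells against 274 in GFP-negative cells. These signals were the closest together of the 7 genes, at 1.03-fold (−0.04 log2), and 90.6% of genes above the floor differed by more. Jund, the JUN protein known for steady expression in resting cells, read 1649 and 2018 on its probe set 1449117_at. Its signal was 1.22-fold lower in GFP-positive cells (−0.29 log2), inside the scatter between probe sets. A second Jund probe set, 1440265_at, read 21.9 and 37.5, under the floor on both arrays. The 3 JUN genes went in both directions, Jun upward and Junb and Jund downward. On the probe set that stands for each gene the differences were under the scatter SD, which the second Jun probe set exceeded 1.67 times.

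Batf, which is required for the Th17 and follicular helper programmes, read 631 in the GFP-positive and 851 in the GFP-negative population on its only probe set, 1419410_at. The GFP-negative array was the higher by 1.35-fold (−0.43 log2). It was 1.09 times the scatter SD, and 28.4% of all genes above the floor differed by more. Irf4, its partner at composite sites, went the other way, with signals of 488.5 and 279.5 (1.75-fold higher in GFP-positive cells). Atf3, a stress-induced repressor that pairs with JUN proteins, read 16.7 and 8.40, under the floor on both arrays, and 40 and 41 of the 67 tissue-restricted genes were at least as bright.

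Maf, which encodes c-MAF, was measured by 6 probe sets, all above the floor on both arrays. The brightest, 1447849_s_at, read 2333 in GFP-positive cells against 2639 in GFP-negative cells, a 1.13-fold lower GFP-positive signal (−0.18 log2). The next, 1437473_at, read 1350 and 1188 and was 1.14-fold higher, and 1456060_at read 776.5 and 727 and was 1.07-fold higher. These 3 signals lay within 1.14-fold of each other between the arrays, without a common direction.

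The dimmer Maf probe sets were further apart. Probe set 1444073_at read 184 in GFP-positive cells against 352 in GFP-negative cells, 1.91-fold lower and the largest difference of all 13 probe sets above the floor. Probe set 1435828_at read 179 and 247, 1.38-fold lower. Probe set 1447945_at read 106 and 75.4, 1.40-fold higher. Of the 6 differences, 3 were positive and 3 negative, from −0.94 to 0.49 log2, with a mean of −0.14 and an SD of 0.51 over probe sets. Because these probe sets share the same 2 RNA samples, they are not replicates of the populations. At least 6 probe sets exceeded the floor on both arrays for 42 genes, of which 41 had differences in both directions. Their median SD was 0.36, and that of Maf ranked 8 from the highest. The sign of the Maf difference depends on which probe set stands for the gene: leaving out probe sets that may match more than 1 transcript made it 0.18 log2.

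Mafk, a small MAF protein, read 262 in the GFP-positive and 195 in the GFP-negative population on its only probe set, 1418616_at. The GFP-positive signal was 1.34-fold higher (0.42 log2), 1.07 times the scatter SD and close in size to the Batf difference with the opposite sign. A larger difference was found for 29.0% of genes above the floor, and 2 and 3 tissue-restricted genes were as bright on the same arrays.

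Counted by probe set, 13 of the 18 lay above the floor, 7 higher and 6 lower in GFP-positive cells, where 50.2% of all probe sets with 1 gene symbol exceeded the floor. None of the 13 passed 2-fold, against 3.87% of the 17552 that did. At 1.5-fold, 2 of the 13 passed, 1 of Jun upward (against 10.2%) and 1 of Maf downward (against 8.34%), together against 18.5% of all. A difference smaller than the scatter SD was found for 7 of the 13, against 65.8% of all probe sets above the floor. The members' shares were near those of all probe sets.

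**Figure D2:**
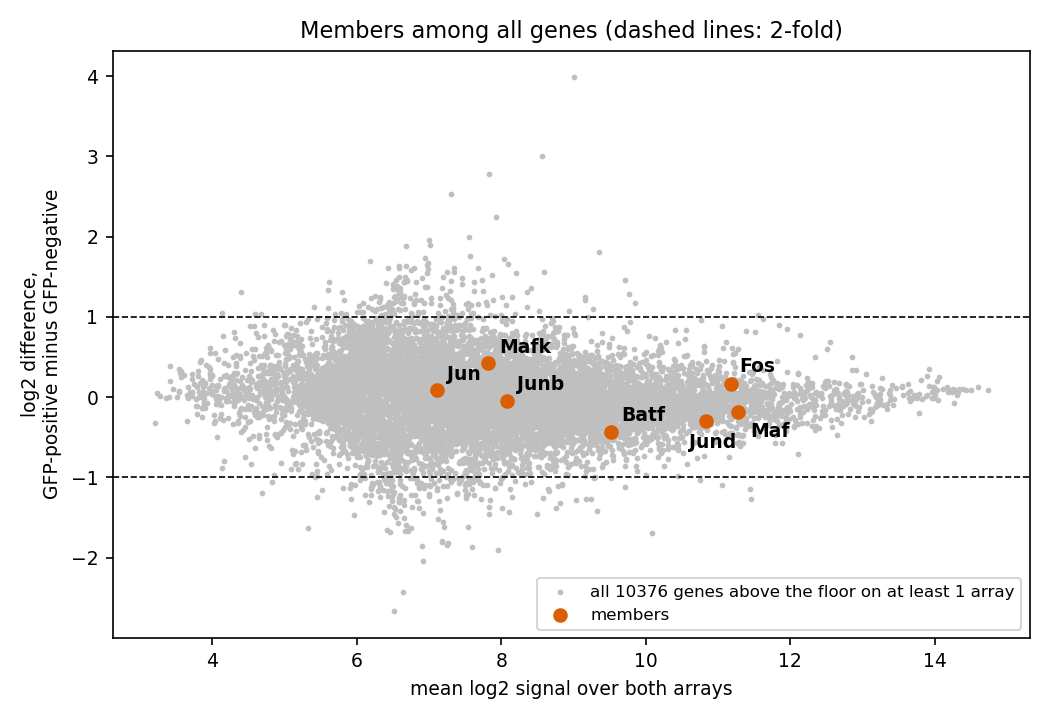
Log2 difference (GFP-positive minus GFP-negative) against the mean log2 signal of both arrays for the 10376 genes that exceeded the floor on 1 array or both (grey) and the 7 members above it (orange). The members lie between −0.43 and 0.42 inside the cloud of all genes, and none reaches a dashed line at 2-fold.

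Relatives close to the members include their partners and competitors. Of 13 other AP-1, BATF, MAF, CNC and BACH genes with a probe set, 7 lay above the floor, 2 higher and 5 lower in GFP-positive cells, and 0 passed 2-fold. Of all genes above the floor, 48.7% were higher, 51.2% lower and 3.47% past 2-fold. With 7 genes, 0 past 2-fold is near that share. The median of the 7 relatives was −0.03 log2. It was −0.41 over the 4 genes above the doubled floor and −0.46 over all 13 without a floor, so these medians cover different genes. Bach2, a repressor that competes with AP-1 at its sites, had signals of 299 and 480 (1.61-fold lower), but 1 of its 2 further probe sets above the floor was higher. Nfe2l2, which encodes NRF2, had 173 and 237 (1.37-fold lower), and Bach1 266 and 342 (1.29-fold lower), with a further Bach1 probe set at 0.79 log2. Maff, a small MAF like Mafk, had 72.6 and 40.9, at least 1.17-fold higher. Fosl1, Batf2 and Batf3 were under the floor on both arrays.

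The other bZIP genes, of the ATF, CREB, C/EBP and PAR groups, also had 0 genes past 2-fold among the 14 of 20 above the floor, with 6 higher, 8 lower and a median of −0.11 log2. The shares of all genes above the floor were 3.47% past 2-fold, 48.7% higher and 51.2% lower, and these counts are near them. Atf6, a sensor of unfolded proteins, had signals of 131 and 70.2 (1.86-fold higher), with a further probe set at −0.08 log2. Ddit3, which encodes the stress factor CHOP, had 189 and 319 (1.68-fold lower), and its further probe set was lower too. Creb3 had 573 and 831 (1.45-fold lower), with both further probe sets lower, and the clock output gene Dbp had 572 and 395 (1.45-fold higher), with its further probe set lower. Atf4 (1254.5 and 1437.5) and Xbp1 (1547 and 1722) differed by −0.20 and −0.15 log2, and both further Atf4 probe sets were higher.

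The kinases that activate AP-1 were lower in GFP-positive cells for 9 of 13 genes and higher for 4, where 51.2% of all genes above the floor were lower, with a median of −0.17 log2. Past 2-fold were 2 of 13 (15.4%), both lower, against 1.73% of all genes: Mapk7, which encodes ERK5, had signals of 41.6 and 167 (at least 2.70-fold lower), and Map3k1, which acts upstream of JNK, 63.1 and 159 (2.53-fold lower). A further probe set of Map3k1 differed by 0.02 log2. The GFP-positive signal of Map3k1 lay just above the floor and that of Mapk7 under it. With the floor doubled to 123.68, neither passed 2-fold. This list was also chosen with earlier results of these data known, so its share is no independent evidence. Map2k4, which phosphorylates JNK, had 339 and 216 (1.57-fold higher), and Map3k7, which encodes TAK1, 171 and 255 (−0.58 log2), with further probe sets in both directions. Mapk14, which encodes p38 alpha, had 906 and 1020, and Rps6ka3 690 and 714. Of the factors at the Fos serum response element, Srf had 409 and 522 (1.28-fold lower), Elk4 3251.5 and 3941 (1.21-fold lower) and Elk3 261 and 186 (1.40-fold higher). Further probe sets of Elk4 went both ways, and the median of these 3 genes was −0.28 log2, or 0.86 with probe sets averaged. Those averages took in probe sets under the floor, and no probe set of these genes above it exceeded 0.49 log2.

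Partner factors at composite sites were lower in GFP-positive cells for 8 of 10 genes, against 51.2% of all genes above the floor. Because this list too was chosen with earlier results of these data known, its share is no independent evidence. At 2-fold 0 passed, against 3.47%, and the median was −0.43 log2. The 2 higher genes were Irf4 (1.75-fold) and Irf8 (1.08-fold, with its further probe set lower). Nfatc1, which binds beside AP-1 at cytokine genes, had signals of 445 and 889 (just under 2-fold lower), and its 4 further probe sets were all lower. Bcl6, the follicular helper regulator, had 203 and 396.5 (1.95-fold lower). Runx1 had 212 and 382 (1.80-fold lower) and Ets1 526 and 921 (1.75-fold lower), with further probe sets of each in both directions. Nfatc3 had 1090 and 1309 (−0.26 log2). With probe sets averaged the median was −0.10 log2, over the 8 genes then above the floor. Without probe sets that may match more than 1 transcript it was −0.29, over 9 genes.

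Genes known as targets of AP-1, BATF or MAF in T cells went both ways: of 19 above the floor, 10 were higher and 9 lower in GFP-positive cells, with a median of 0.04 log2. Of these 5 passed 2-fold (26.3%, against 3.47% of all genes), 2 upward and 3 downward (against 1.74% and 1.73%). The list was chosen with such values known, so its share is no independent evidence. Ccr6, a chemokine receptor, had signals of 516 and 209 (2.47-fold higher), and Il10, a cytokine gene that MAF activates, 232 and 112 (2.06-fold higher). Il10 was named after its values were seen. Cxcr5, the follicle homing receptor, had 29.9 and 333 (at least 5.39-fold lower), Tnf 52.7 and 139 (at least 2.25-fold lower) and Ifng 316 and 667 (2.11-fold lower). Icos, a co-stimulatory receptor gene, had 8315 and 6566 (1.27-fold higher). Maf is itself on this list. As elsewhere here, these counts describe 2 arrays and relate no target to a member.

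Other immediate early genes, which are induced by the same stimuli as Fos, Fosb, Jun and Junb, were higher in GFP-positive cells for 6 and lower for 10 of 16 genes above the floor, with 0 past 2-fold and a median of −0.10 log2. Of all genes above the floor, 48.7% were higher, 51.2% lower and 3.47% past 2-fold. With 16 genes, 0 past 2-fold is near that share. Dusp1, a MAP kinase phosphatase, had signals of 2920.0 and 2000.2 (1.46-fold higher), and Dusp2, another, had 1025 and 1258 (1.23-fold lower). Myc had 163 and 95.8 (1.70-fold higher), Nr4a2 105 and 53.3 (at least 1.69-fold higher, with further probe sets in both directions) and Dusp5 53.3 and 117 (at least 1.89-fold lower).

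**Figure D3:**
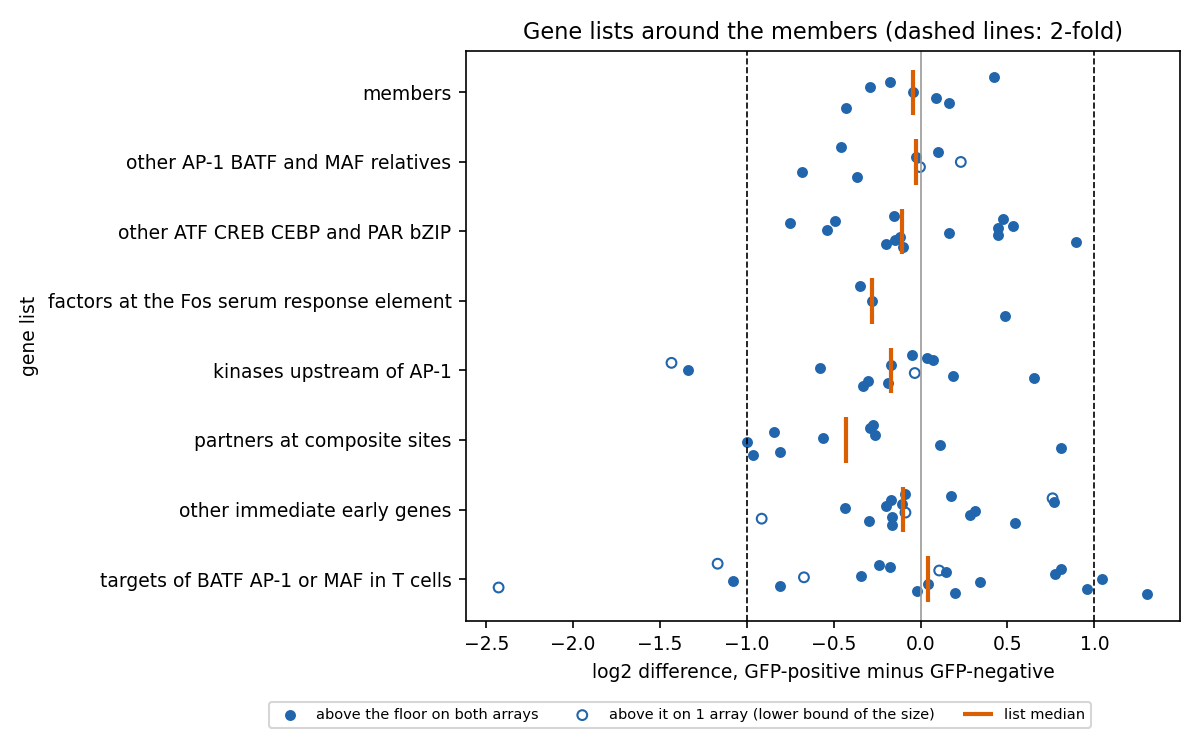
Log2 difference (GFP-positive minus GFP-negative) of each gene above the floor in the members and 7 surrounding gene lists; filled points are above the floor on both arrays, open points on 1 array (a lower bound of the size), and bars mark list medians. Points past the dashed 2-fold lines occur in the kinase list (2) and the target list (5), and the 7 members lie between −0.43 and 0.42.

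Across 7 other ways of processing the values, 6 of the 7 members above the floor kept their direction in each, and Maf did in 6 of them. Batf lay between −0.43 and −0.37, Mafk between 0.41 and 0.42, Fos between 0.16 and 0.21 and Junb between −0.04 and −0.02 log2. Jund reached −0.53 and Jun 0.37 with probe sets averaged per gene. The Jund average took in probe set 1440265_at, which lay under the floor on both arrays. Maf lay between −0.18 and 0.18. These settings reuse the same 2 arrays and give no replicate error.

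**Figure D4:**
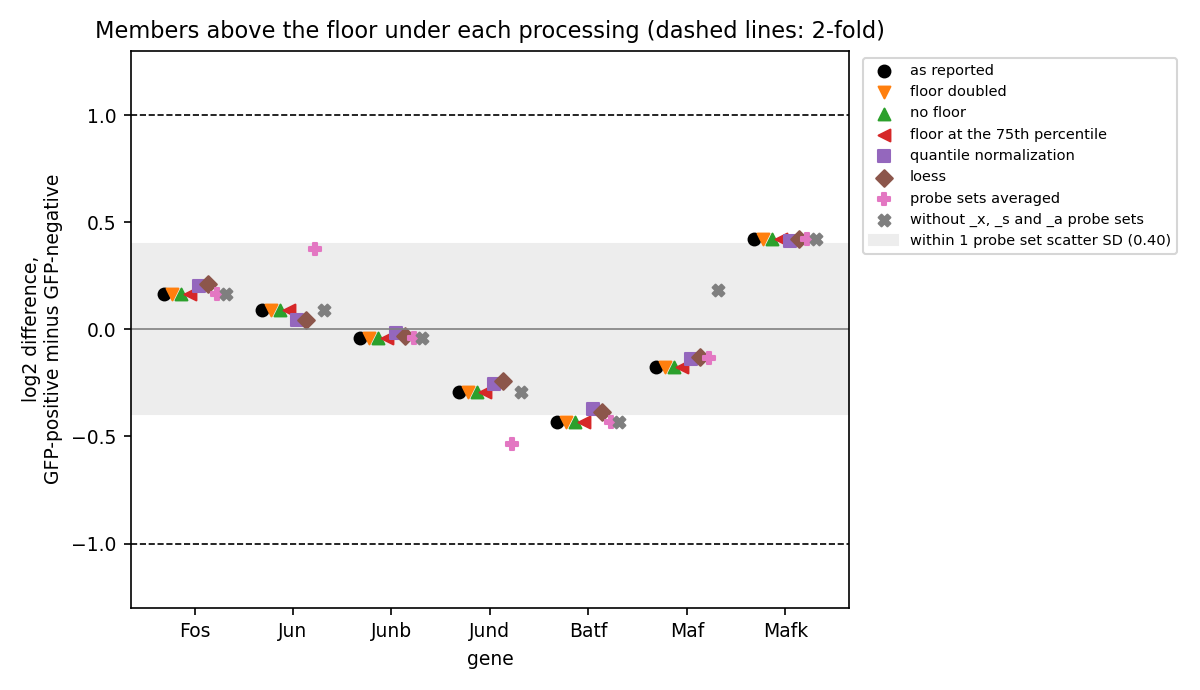
Log2 difference (GFP-positive minus GFP-negative) of the 7 members above the floor as reported (black) and under 7 other settings, with the probe set scatter SD of 0.40 shaded and 2-fold as dashed lines. None of the values reaches a dashed line, and Maf lies on both sides of 0.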

How the data were processed

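Messenger RNA of 2 sorted CD4+ populations was measured on 1 array each, and arrays were grouped by their titles. From 6 µg of total RNA, biotin-labelled cRNA was made, per the labels' protocols. The deposited table holds a linear intensity for each probe set on each array, for which the submitters' processing notes name MAS5. The sources used here state no version, background settings or detection calls. The 2% trimmed mean was 150.0 on both arrays, so the authors had scaled them to each other, and no further scaling was applied.

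Of 45101 probe sets, 34945 had 1 gene symbol in the platform annotation, 932 several and 9211 none, 51 control probe sets among the last. A further 13 control probe sets with a symbol were left out. Gene identifiers of 34741 matched RefSeq (GRCm38.p6), and 0 symbols changed. The probe set brightest in mean log2 signal stood for its gene. The floor came from 111 probe sets of 67 of 78 listed tissue-restricted genes, of which 12 passed it. A gene entered with at least 1 signal above the floor. A fold with only 1 signal above it is a lower bound. No test was run, and precision is limited by the number of arrays. Genes without a probe set under their listed symbol were not analysed here.

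Named were all members and, from each list, the up to 4 genes above the floor that differed most in either direction and the 2 with the highest mean signal, plus Foxp3 and marker genes. Irf4 was added beside Batf as its partner, Irf4 and Irf8 as the higher genes of the partner list, and Fosl1, Batf2 and Batf3 as genes under the floor. All were added after their values were seen. The members and lists were chosen with earlier results of these data known. Alternatives were the floor doubled, no floor, quantile normalization, loess (statsmodels 0.14.6), averaged probe sets, no probe sets ending in _x, _s or _a, and a lower floor added after seeing the data. Averaging took all probe sets of a gene, those under the floor included, and the floor was applied to the mean. The steps were checked with known folds, free of noise, put into bright genes after both arrays were given the same signals. This check does not cover signals near the floor or probe sets of a gene that differ.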

Additional observations from a re-analysis of the deposited data

How the results depend on the processing

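The count of members past 2-fold was 0 under 6 of 7 alternatives. Without a floor the count was 1, that of Fosb (3.54 log2), whose GFP-negative signal of 5.20 was reached by 51 of the 67 tissue-restricted genes, and Atf3 then differed by 0.99 log2. The count of all genes past 2-fold, 360, moved with the floor by its construction: it was 127 with the floor doubled, 1129 with the floor at the 75th percentile and 5724 without one. Of the genes past 2-fold, 50.3% were higher in GFP-positive cells, 62.2% with the lower floor, 57.7% without one, 46.8% after quantile normalization, 44.9% with the floor doubled and 43.8% after loess. The median of all genes stayed between −0.04 and 0.03 log2 under every setting run. Batf differed most of the members as reported, and Mafk after quantile normalization (0.41 against −0.37 log2) and loess (0.42 against −0.39). With averaged probe sets it was Jund (−0.53), whose average took in a probe set under the floor on both arrays. With the lower floor it was Fosb (at least 0.76 log2), as it was without a floor. The median of the members lay between −0.04 and 0.09 log2. The median at the Fos serum response element, −0.28 log2, became 0.86 over 3 genes with averaged probe sets. Those averages took in probe sets under the floor. The median became 0.37 over 2 genes when probe sets that may match more than 1 transcript were left out. No paired analysis was possible because each group holds 1 array, and for the same reason no array could be left out.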
